A study of Mus musculus with 8 samples.

Results

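The 9 genes described here are the Id genes Id1, Id2, Id3 and Id4 and 5 genes through which bone morphogenetic protein (BMP) and TGF-beta signalling feeds back on itself: Bmp4, Smad6, Smad7, Bambi and Skil. They were found by symbol among the non-control probes of a mouse expression array. The 9 genes had 11 probes of the 55664 with complete data, and 7 of the 9 entered the test, which covered 28940 genes. The study addressed the conditional loss of Geminin (Gmnn), an inhibitor of DNA replication licensing, in the mouse embryo. Neural tube of the spinal region and the paraxial tissue beside it were laser-captured from 4 embryos of strain C57BL/6 at stage E10.5. The groups were the neural tube and the paraxial tissue of wild-type embryos, and those of mutant embryos of genotype fl/fl; cre/o, with 2 arrays each. Each embryo gave both tissues, so 2 embryos stand for each genotype. The labels name neither the driver of the Cre recombinase nor which part of Gmnn is deleted. The controls are given as wild type alone, so floxed controls or Cre-bearing controls were not compared.

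BMP ligands such as Bmp4 bind serine/threonine kinase receptors, which phosphorylate receptor Smads. These join Smad4, enter the nucleus and switch on target genes. The Id genes are among the most direct of those targets. Id proteins have a helix-loop-helix domain but no DNA-binding region. They bind E proteins and so keep tissue-specific bHLH factors from acting, which in many lineages holds cells back from differentiation. Smad6 and Smad7 are inhibitory Smads, Bambi is a receptor-like protein without a kinase, and Skil (SnoN) is a nuclear repressor that binds Smads. All of these are induced by the signal that they dampen. In the spinal cord, BMPs from the roof plate and the overlying ectoderm set up dorsal cell types, and in the mesoderm they act against the programme of the somites.

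Signal is given here as scaled log2 signal, the log2 of the processed spot intensity after every array was set to the same 75th percentile. A difference of 1 on this scale is a doubling. Values are compared within a gene only, because probes differ in how brightly they bind. On mouse build mm9, as the array design gives it, the Id1 probe lies at chr2:152563083-152563142, the Id2 probe at chr12:25778904-25778963, the Id4 probe at chr13:48358668-48358727 and the Smad6 probe at chr9:63800980-63801039. The Id3 probe covers chr4:135700075-135700249, a stretch of 175 bases for a probe of 60, so it crosses a gap between aligned blocks. Its sequence is printed because it is the only probe of the set that does so.

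Id3 probe: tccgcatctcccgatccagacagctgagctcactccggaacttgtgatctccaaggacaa

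The tested Bmp4 probe lies at chr14:47003391-47003450 and the tested Skil probe at chr3:31021203-31021262. Exon and untranslated-region annotation on mm9 was not used here.

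Upstream sequence is printed for Id2, Id3, Id4 and Smad6, since these are textbook direct Smad targets whose signals are compared across the groups. In the RefSeq promoter table (build GRCm38.p6), 5 of the 9 genes were searched: Id2, Id3, Id4, Smad6 and Bmp4. Their windows of 300 bases, from 250 before to 50 after the annotated start, were searched on both strands for 2 palindromes, GGCGCC, a GC-rich box bound by BMP Smads, and GTCTAGAC, the palindromic Smad-binding element. Capitals mark a match. The bases up to the annotated start are shown for Id2, Id3 and Id4. For Smad6, 4 bases after the start are added because the match runs across it.

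Id2, chr12:25096093-25096342, minus strand: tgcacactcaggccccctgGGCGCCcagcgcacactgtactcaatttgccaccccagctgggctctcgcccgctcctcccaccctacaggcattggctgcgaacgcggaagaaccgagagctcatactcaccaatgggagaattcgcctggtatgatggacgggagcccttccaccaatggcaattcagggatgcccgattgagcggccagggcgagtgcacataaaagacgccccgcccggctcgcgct

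Id3, chr4:136143572-136143821, plus strand: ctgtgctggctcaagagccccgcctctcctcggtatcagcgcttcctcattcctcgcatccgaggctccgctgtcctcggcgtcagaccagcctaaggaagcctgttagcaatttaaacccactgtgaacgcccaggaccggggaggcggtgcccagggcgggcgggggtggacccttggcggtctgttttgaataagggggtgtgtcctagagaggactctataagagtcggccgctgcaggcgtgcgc

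Id4, chr13:48260866-48261115, plus strand: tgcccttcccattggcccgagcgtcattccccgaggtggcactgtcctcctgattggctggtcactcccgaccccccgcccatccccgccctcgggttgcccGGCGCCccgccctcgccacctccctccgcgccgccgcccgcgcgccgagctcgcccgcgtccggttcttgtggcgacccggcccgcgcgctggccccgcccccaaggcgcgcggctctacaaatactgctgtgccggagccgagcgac

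Smad6, chr9:64022056-64022309, minus strand: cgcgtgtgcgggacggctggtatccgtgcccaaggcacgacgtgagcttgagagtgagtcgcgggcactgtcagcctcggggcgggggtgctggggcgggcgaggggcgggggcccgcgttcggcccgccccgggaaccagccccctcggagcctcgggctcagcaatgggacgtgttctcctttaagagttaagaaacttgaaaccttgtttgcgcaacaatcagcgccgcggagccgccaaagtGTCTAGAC

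GGCGCC lay 231 bases before the start of Id2 and 148 bases before that of Id4. It occurred in 11.9% of the 32851 promoters in the table. GTCTAGAC lay across the start of Smad6, and 0.213% of all promoters held it. Neither palindrome was found in the windows of Id3 and Bmp4. These matches describe letters in a window and are not measured binding sites.

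Between 71.5% and 77.9% of probes per array were well above background and no spot was saturated. Markers of neural tube progenitors were higher on both neural tube arrays than on both paraxial arrays for 10 of 10 genes in each genotype. Paraxial mesoderm markers were lower for 8 of 9, and in mutants the remaining 1 was higher on both neural tube arrays. Over all genes the tissues did not overlap for 35.2% in wild types and 36.2% in mutants. By limma 3 of 10 progenitor and 4 of 9 paraxial markers passed in wild types (2.45% of all genes), and 10 of 10 and 4 of 9 in mutants (5.85%). Gmnn itself was 0.35 ± 0.25 (SE) lower on the log2 scale in mutant neural tube (limma adjusted p = 0.921) and 0.63 ± 0.25 lower in mutant paraxial tissue (adjusted p = 0.995). Neither difference passed, and the sources used here do not say whether its probe lies in the deleted part, so it does not check the genotype labels. Some arrays stood apart from their partner. Wild-type paraxial array 1 had a mean of neuron markers 0.79 above the mean of all arrays where array 2 was at -0.80, and mutant neural tube array 1 was at -0.46 where array 2 was at 0.93. Wild-type neural tube array 2 had a mean of paraxial markers of -0.14 where array 1 was at -2.48.

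**Figure D1:**
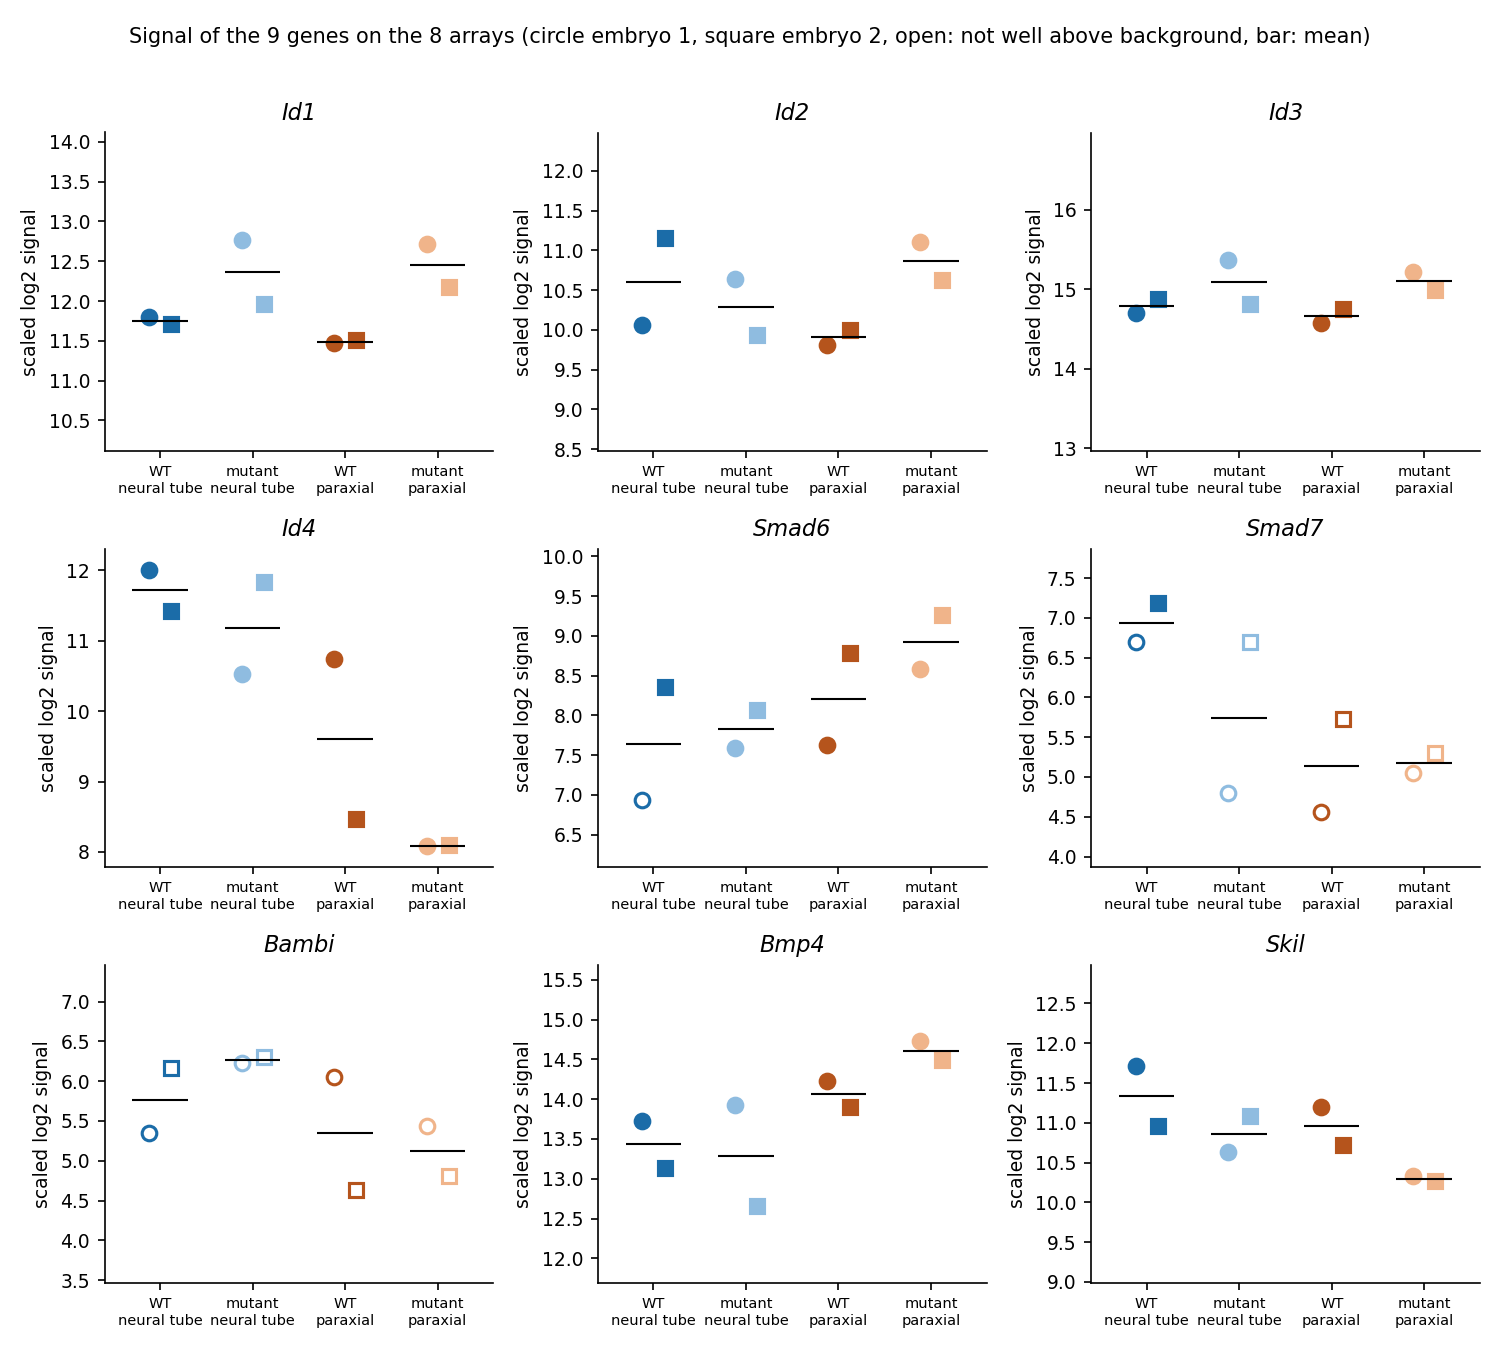
Scaled log2 signal (vertical axes, with a separate range for each gene) of the 9 genes on the 8 arrays, by genotype and tissue; circles are embryo 1, squares embryo 2, bars the mean, and open symbols arrays where the probe was not well above background. Id4 lay at 8.09 on both mutant paraxial arrays and at 10.52 or more on the neural tube arrays, while all symbols of Bambi are open.

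Id4 had the widest range of the set and was higher in neural tube within every embryo. Id4 is the family member most tied to neural progenitors and developing glia. Its scaled log2 signal was 12.01 and 11.43 in wild-type neural tube, 10.52 and 11.84 in mutant neural tube, 10.74 and 8.47 in wild-type paraxial tissue, and 8.09 and 8.09 in mutant paraxial tissue. The lowest neural tube array was thus below the highest paraxial array, so the tissues overlapped over all 8 arrays. In mutant embryos Id4 was 3.09 ± 0.52 (SE, n = 2 embryos) higher on the log2 scale in neural tube than in paraxial tissue, 8.52-fold, with a limma adjusted p of 0.0227. In wild-type embryos the difference was 2.11 ± 0.52 and did not pass (limma adjusted p = 0.0916). Averaged over the genotypes it was 2.60 ± 0.37, higher in 4 of 4 embryos (limma adjusted p = 0.00674). The difference between genotypes in this tissue contrast was 0.98 ± 0.73 and did not pass (limma adjusted p = 0.966).

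The arrays with little Id4 were those with little signal of neuron markers. All 12 neuron markers were well above background on every array, none of them at 0, and their summed linear scaled signal was 193847 to 215345 in wild-type neural tube, 96571 to 199416 in mutant neural tube, 71451 to 180636 in wild-type paraxial tissue and 58808 to 61026 in mutant paraxial tissue. In mutant neural tube and wild-type paraxial tissue, the array with the lower neuron sum was also the array with less Id4. The part of neuronal material in the Id4 difference was not tested. In captured tissue of this kind, fewer cells of a type and less RNA per cell cannot be told apart.

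The mutant tissue call on Id4 was lost when any 1 of the 4 mutant arrays was left out (limma adjusted p from 0.0845 to 0.198), while the difference itself ran from 2.43 to 3.75. With the embryo as a fixed block the mutant call was also lost (limma adjusted p = 0.0725), as it was with no filter on dim probes (limma adjusted p = 0.0542). The wild-type difference passed without wild-type paraxial array 1 (limma adjusted p = 0.0219). Leaving out both arrays of mutant embryo 2 ended the call on the mean difference (limma adjusted p = 0.0739).

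Bmp4 ran the other way. Bmp4 is the ligand of the set, made in this region by ectoderm, roof plate and lateral mesoderm. Its scaled log2 signal was 13.73 and 13.14 in wild-type neural tube, 13.92 and 12.65 in mutant neural tube, 14.23 and 13.90 in wild-type paraxial tissue, and 14.73 and 14.49 in mutant paraxial tissue. Paraxial values lay above neural tube values within each genotype, while mutant neural tube array 1 lay just above wild-type paraxial array 2. Bmp4 fell by 1.32 ± 0.29 (SE, n = 2 embryos) on the log2 scale from paraxial tissue to neural tube in mutant embryos, a 2.50-fold lower level (limma adjusted p = 0.0494). In wild-type embryos the difference was -0.63 ± 0.29 and did not pass (limma adjusted p = 0.320). The mean over genotypes was -0.98 ± 0.21, lower in 4 of 4 embryos (limma adjusted p = 0.0266). The mutant call was lost without any 1 of the 4 mutant arrays (limma adjusted p from 0.0674 to 0.357) or either wild-type embryo, and without mutant neural tube array 2 the difference was -0.75. The mean call was lost without mutant neural tube array 2, either mutant paraxial array, or array 2 of either wild-type tissue, and without mutant embryo 2 or either wild-type embryo (limma adjusted p up to 0.195). With the embryo as a fixed block both calls were lost (limma adjusted p = 0.109 in mutants and 0.0648 for the mean).

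A second Bmp4 probe, at chr14:47003198-47003257, read between 4.16 and 5.28 and was not well above background on any of the 8 arrays. It gives no level for the gene, and the Bmp4 values above rest on 1 probe. The silent probe was 85.0% A and T, with 51.7% A.

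Smad6 had the same direction as Bmp4 without passing the test. The inhibitory Smad read 6.93 and 8.36 in wild-type neural tube, 7.60 and 8.07 in mutant neural tube, 7.62 and 8.78 in wild-type paraxial tissue, and 8.58 and 9.26 in mutant paraxial tissue. The first of these arrays was not well above background. Both mutant paraxial values were above both mutant neural tube values, whereas the wild-type tissues overlapped. The neural tube minus paraxial difference was -1.09 ± 0.30 in mutants (limma adjusted p = 0.0950), -0.56 ± 0.30 in wild types (adjusted p = 0.397) and -0.82 ± 0.22 on average (adjusted p = 0.0535), with paraxial tissue higher in 4 of 4 embryos. With the embryo as a fixed block the mean passed (limma adjusted p = 0.0336). The mutant difference passed without any 1 of the 4 wild-type arrays (limma adjusted p from 0.0391 to 0.0407), and the mean without wild-type neural tube array 2 or wild-type paraxial array 1. Endothelial markers, of a cell type that expresses Smad6, ran lower in the neural tube of mutants than beside it for 15 of 15 genes, all 15 detected on both mutant paraxial arrays. Their median was -1.14, with 7 called lower by limma, where 5.85% of all genes were called in either direction in this contrast. Their summed linear scaled signal was 55019 to 92097 in wild-type neural tube, 59725 to 72632 in mutant neural tube, 78372 to 101364 in wild-type paraxial tissue and 125154 to 138103 in mutant paraxial tissue. Intermediate and lateral mesoderm markers were lower in mutant neural tube for 5 of 7 genes, by a median of -2.68, with 2 called lower by limma. Their summed linear scaled signal overlapped, at 16695 to 40234 in mutant neural tube and 22984 to 33858 in mutant paraxial tissue. Surface ectoderm markers were lower for 13 of 14, by a median of -1.04, with 4 called lower, from a sum of 349811 to 390176 in mutant paraxial tissue to 276298 to 313385 in mutant neural tube. The part of these cell types in the Smad6 and Bmp4 values was not tested.

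The other 4 tested genes did not pass the tissue test in either genotype. Id1 was 0.26 ± 0.19 higher in wild-type neural tube and -0.09 ± 0.19 in the mutants. Id3 differed by 0.12 ± 0.17 and -0.02 ± 0.17, the smallest tissue differences of the set. Their 95% intervals in wild types, -0.19 to 0.72 for Id1 and -0.27 to 0.52 for Id3, do not include a doubling. Id2 was at 0.70 ± 0.28 in wild types and -0.57 ± 0.28 in mutants, and the wild-type value passed without wild-type neural tube array 1 (limma adjusted p = 0.0350). Skil gave 0.38 ± 0.21 and 0.56 ± 0.21 by the probe tested and -0.77 ± 0.44 and 0.00 ± 0.44 by its second probe, so no tissue direction is given for it.

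Of the 7 tested genes, 0 passed in wild-type embryos by limma, against 2.45% of all genes, and Id2 and Id4 had an unadjusted p under 0.05, as 17.9% of all genes did. In mutant embryos 2 of 7 passed, Id4 and Bmp4, against 5.85% of all genes. For the mean over genotypes the count was again 2 of 7, against 12% of all genes. The tissues did not overlap for 4 of 7 in wild types (Id1, Id2, Id4 and Bmp4), against 35.2% of all genes, and for 4 of 7 in mutants (Id4, Bmp4, Smad6 and, by its tested probe, Skil), against 36.2%. The median difference of the 7 was 0.26 in wild types beside 0.00 for all genes, and -0.09 in mutants beside -0.03.

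**Figure D2:**
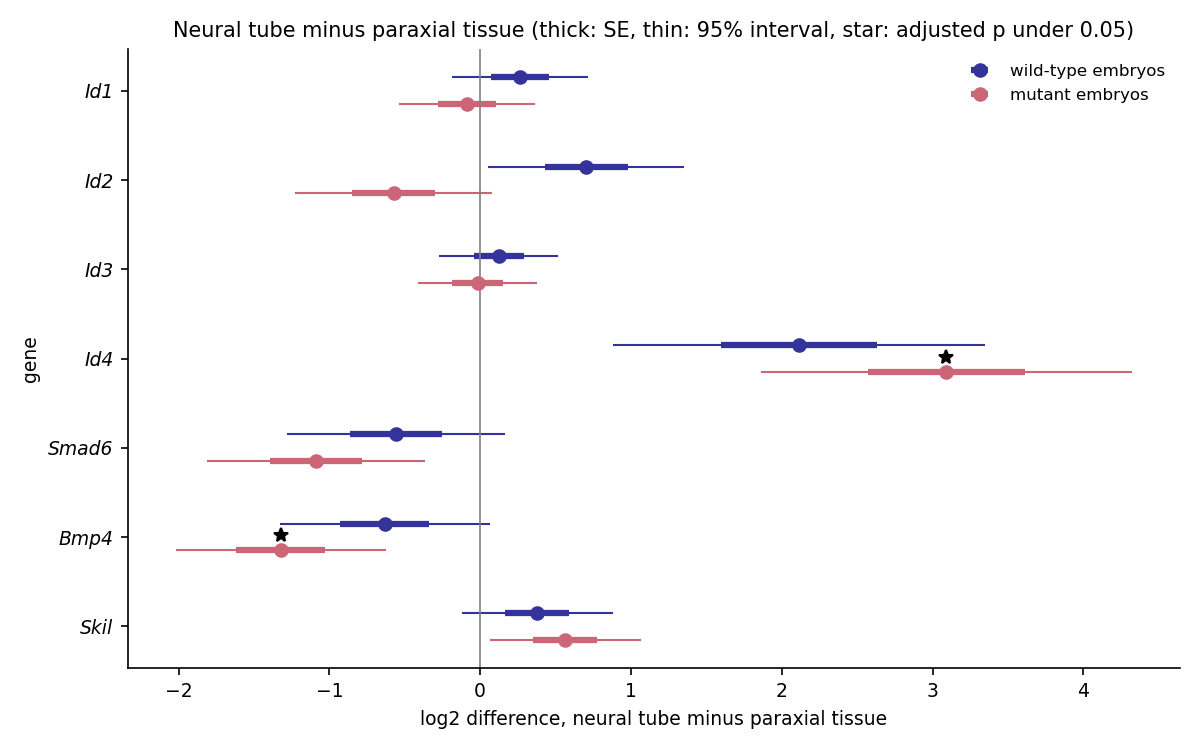
Log2 difference of neural tube minus paraxial tissue (horizontal axis) for the 7 tested genes in wild-type and mutant embryos; points are limma estimates, thick bars the SE, thin bars the 95% interval, and stars an adjusted p under 0.05. Only Id4 (3.09) and Bmp4 (-1.32) in mutants carry a star, and the points of Id2 lie on opposite sides of 0.

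In the comparison of genotypes no gene of the whole array passed, and the values that follow are descriptions of 2 embryos against 2. Id1, a BMP target also strong in endothelium, gave the clearest separation. It read 11.79 and 11.71 in wild-type neural tube against 12.76 and 11.96 in mutant neural tube, and 11.47 and 11.51 in wild-type paraxial tissue against 12.72 and 12.18 in mutant paraxial tissue. Every mutant array lay above every wild-type array. The mutant minus wild-type difference was 0.61 ± 0.30 (SE) in neural tube (limma adjusted p = 0.921) and 0.96 ± 0.30 in paraxial tissue, 1.95-fold (adjusted p = 0.995). The mean of both was 0.79 ± 0.27, with an unadjusted p of 0.0237 and a limma adjusted p of 0.950. Id1 was the only one of the 7 whose genotypes did not overlap over all 8 arrays, as 5.64% of all genes did.

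Id3 moved with Id1 from array to array. It read 14.70 and 14.87 in wild-type neural tube, 15.36 and 14.81 in mutant neural tube, 14.57 and 14.75 in wild-type paraxial tissue, and 15.22 and 14.99 in mutant paraxial tissue. The mutant values were the higher ones in paraxial tissue and overlapped with wild type in neural tube. The differences were 0.30 ± 0.27 in neural tube and 0.44 ± 0.27 in paraxial tissue, neither passing. Over the 8 arrays Id1 and Id3 had a Pearson correlation of 0.950, given as a description, since arrays of an embryo share their source. The corresponding value of Id1 with Id2 was 0.589 and with Id4 -0.32.

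The Id2 estimates had opposite signs in the 2 tissues, with the neural tube one close to its error. It read 10.06 and 11.15 in wild-type neural tube and 10.64 and 9.93 in mutant neural tube, which overlap. In paraxial tissue it read 9.81 and 10.00 in wild types and 11.10 and 10.62 in mutants, which do not. The mutant minus wild-type difference was -0.32 ± 0.44 in neural tube and 0.96 ± 0.44 in paraxial tissue. The neural tube value turned positive in 3 of 12 fits with arrays left out (-0.86 to 0.23). The difference between these, the interaction, was -1.28 ± 0.39 with an unadjusted p of 0.0137, and it did not pass over all genes (limma adjusted p = 0.890). By limma 0 genes passed for the interaction and 1495 had an unadjusted p under 0.05, 5.17% of all tested.

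Id4 was on the lower side in mutants. Its genotype difference was -0.54 ± 0.82 in neural tube and -1.51 ± 0.82 in paraxial tissue, with neither passing. Both mutant paraxial values were below both wild-type values, of which array 1 was the one with the high neuron markers. The paraxial difference was -0.61 without that array and -2.41 without wild-type paraxial array 2, and it ran from -0.38 to -2.65 when whole embryos were left out.

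Bmp4 differed by -0.14 ± 0.47 in neural tube and 0.55 ± 0.47 in paraxial tissue, and Smad6 by 0.19 ± 0.48 and 0.72 ± 0.48. None of the 4 values passed. The 95% interval of Bmp4 in paraxial tissue, -0.56 to 1.66, covers both a decrease and a doubling.

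Skil gave different answers by probe. The tested probe, printed on 10 spots per array, read 11.71 and 10.96 in wild-type neural tube, 10.63 and 11.09 in mutant neural tube, 11.20 and 10.72 in wild-type paraxial tissue, and 10.33 and 10.27 in mutant paraxial tissue. It was -0.48 ± 0.34 in the mutant neural tube and -0.66 ± 0.34 in mutant paraxial tissue. The second probe, at chr3:31016390-31016449 with 1 spot, read 10.63 and 8.40, 10.02 and 10.65, 10.63 and 9.93, and 10.11 and 10.56 in the same order of groups. It gave 0.82 ± 0.69 in neural tube and 0.05 ± 0.69 in paraxial tissue. Neither probe passed, and they differ in sign in both tissues, so no direction is given for Skil.

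Smad7 and Bambi, the remaining negative regulators, were too dim to test. Smad7 read 6.69 and 7.19 in wild-type neural tube, 4.79 and 6.70 in mutant neural tube, 4.56 and 5.72 in wild-type paraxial tissue, and 5.04 and 5.30 in mutant paraxial tissue. It was well above background on 1 array, wild-type neural tube 2. The mean reading of wild-type neural tube was 1.30-fold above the detection floor of wild-type paraxial tissue, 1.19-fold above that of mutant neural tube and 1.26-fold above that of mutant paraxial tissue. That mean holds 1 measured array of 2, so these values are not lower bounds on a fold. Bambi read between 4.63 and 6.30 and was well above background on 0 of 8 arrays, so no fold is given.

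By limma, 0 of the 7 genes, and 0% of all genes, passed for genotype in neural tube, in paraxial tissue or on the mean of both. At an unadjusted p under 0.05 the array held 1050, 971 and 850 genes respectively. In neural tube, 1 of 7 had groups that did not overlap, Id1, against 31.9% of all genes. In paraxial tissue, 6 of 7 did not overlap, against 37.3% of all genes. Id1, Id2, Id3 and Bmp4 were the 4 with both mutant arrays above both wild types, as in 22.6% of all genes. Id4 and, by its tested probe, Skil were the 2 with both below, as in 14.7%. The median mutant difference in paraxial tissue was 0.55 for the 7 and 0.03 for all genes, and in neural tube it was -0.14 and -0.01.

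**Figure D3:**
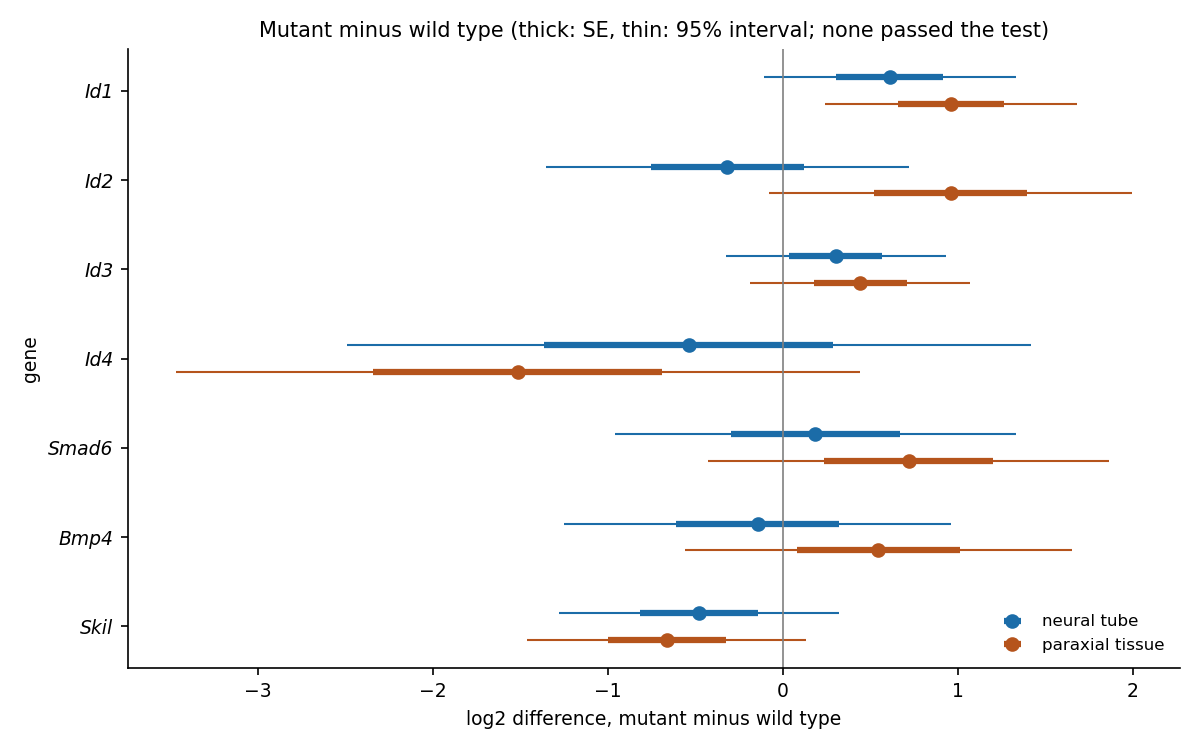
Log2 difference of mutant minus wild type (horizontal axis) for the 7 tested genes in neural tube and in paraxial tissue; points are limma estimates, thick bars the SE and thin bars the 95% interval. Id1 lies to the right of 0 in both tissues (0.61 and 0.96), Id4 to the left, Skil by its tested probe to the left although its second probe gave the opposite sign, and no difference passed the adjusted threshold.

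Markers of other cell types differed between genotypes in the same paraxial arrays. Surface ectoderm markers were higher in mutant paraxial tissue for 14 of 14 genes, by a median of 1.06, with a summed linear scaled signal of 259723 to 289924 in wild types and 349811 to 390176 in mutants. Endothelial markers were higher for 15 of 15, by a median of 0.63, from a sum of 78372 to 101364 to a sum of 125154 to 138103. Erythroid markers were higher for 10 of 10, by a median of 0.81, from 356706 to 413362 to 602932 to 717617. Gut and notochord markers were higher for 8 of 8, by a median of 0.90, from a sum of 2558 to 6073 to a sum of 10810 to 14481. This list does not stand for 1 cell type. In each genotype 3 of its genes were called higher in neural tube than in paraxial tissue. Krt19, Sox17 and Gata6 are also counted in the ectoderm, endothelial and mesoderm lists, and Foxa1 was not well above background on any paraxial array. Intermediate and lateral mesoderm markers were higher for 5 of 7, by a median of 0.91, with sums that overlapped (23169 to 37217 in wild types). Neuron markers ran the other way and were lower for 11 of 12, by a median of -1.20. Their sum was 180636 on wild-type paraxial array 1 but 71451 on array 2, against 58808 to 61026 in mutants. In neural tube the medians of the mutant differences were 0.49 for surface ectoderm, -0.14 for endothelial and 0.16 for erythroid markers. They were 0.65 for gut and notochord, 0.07 for intermediate and lateral mesoderm and -0.82 for neuron markers. The neuron sum was 96571 on mutant neural tube array 1, while array 2 at 199416 lay within the wild-type range of 193847 to 215345. No defining marker tested was at 0, but not every one was well above background on every paraxial array. None of these genes passed the genotype test singly. Their part in the Id1, Id2, Id3, Id4 and Bmp4 values was not tested.

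Other BMP and TGF-beta target genes, listed by textbook role, were mostly on the higher side in mutant paraxial tissue without passing. Of 19 tested, 0 passed, 15 were higher in mutants by any amount (53.4% of all genes were), 8 had both mutant arrays above both wild types (22.6% of all genes did) and 0 had both below (14.7% did). Their median was 0.56, beside 0.03 for all genes. Not every gene counted as higher was well above background in wild-type paraxial tissue. The part of the cell types above in these target genes was not tested. Msx1, a homeobox target of BMP in dorsal and lateral tissue, read 10.53 and 9.65 in wild types and 11.35 and 11.02 in mutants, a difference of 1.1 ± 0.42 (limma adjusted p = 0.995). In neural tube 8 of the 19 were higher, against 49.2% of all genes, the median was -0.04, and the genes with the smallest p in each direction were Dlx6 at 1.91 ± 0.72 and Gata2 at -0.99 ± 0.51.

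The ligands and receptors were mixed. Of 8 BMP ligands besides Bmp4, 5 were higher in mutant paraxial tissue and the median was 0.17, with Bmp2 at 1.09 ± 0.53 and none passing. Of 11 TGF-beta and activin ligands, 5 were higher and the median was 0.00. Tgfb1 was at 1.06 ± 0.36 without passing. Mstn (myostatin) read 7.10 and 8.01 in wild-type paraxial tissue and was not well above background on the mutant arrays. The bound was at least 1.94-fold lower, and the difference did not pass (limma adjusted p = 0.995). Mstn entered the test only through the wild-type paraxial group, where it was high, so these values are a description alone. Of 15 receptors, 6 were higher, beside 53.4% of all genes, 4 had both mutant arrays above both wild types, beside 22.6%, and 8 had both below, beside 14.7%. Bmpr1b, a type I BMP receptor of neural progenitors and condensing mesenchyme, was on the lower side in both tissues, at -1.22 ± 0.28 in neural tube and -0.89 ± 0.28 in paraxial tissue, without passing (limma adjusted p = 0.921 and 0.995). Of 17 secreted antagonists, Fst (follistatin) had the smallest paraxial p, with 10.69 and 11.85 in wild types against 14.44 and 12.80 in mutants, a difference of 2.35 ± 0.58 (limma adjusted p = 0.995). Receptor Smads and their regulators stayed within narrow limits, with a median of -0.05 over 14 genes and Smad4 at 0.18 ± 0.27.

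**Figure D4:**
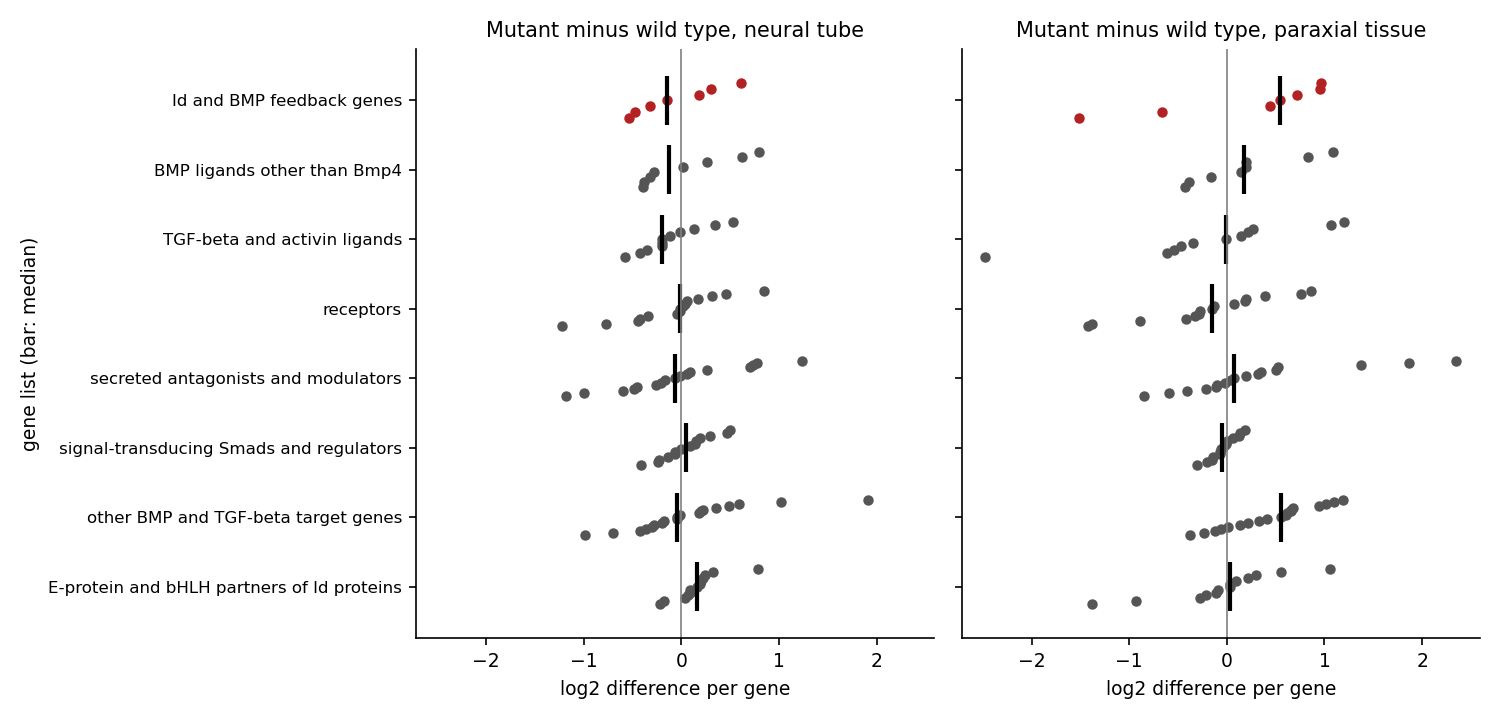
Log2 difference of mutant minus wild type (horizontal axis) of each tested gene in the 8 lists by role. Neural tube is on the left and paraxial tissue on the right. Each point is a gene at its fitted value, and the bar is the list's median. Genes not well above background in some groups, such as Mstn, are included. In paraxial tissue the medians of the Id and BMP feedback genes (0.55) and of the other target genes (0.56) lie farther from 0 than those of the ligand, receptor and Smad lists.

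In the tissue contrast the same lists held genes that passed among ligands, receptors and antagonists, in each genotype lower in neural tube. In wild types Tgfb2 (-1.98 ± 0.30), Tgfb3 (-0.82 ± 0.15), the receptor Tgfbr2 (-1.34 ± 0.16) and the antagonist Nbl1 (-1.43 ± 0.23) were lower in neural tube, and each passed the limma test. The same genes passed in mutants, at -1.49 ± 0.30, -0.86 ± 0.15, -1.07 ± 0.16 and -1.43 ± 0.23 in that order. Bmp5 passed in wild types at -3.56 ± 0.67, with 1 of the 2 neural tube arrays well above background. Hjv (hemojuvelin, a BMP co-receptor) was at least 5.43-fold lower in neural tube. Both genes were kept in the test through their paraxial arrays alone, where they were high. In mutants the BMP ligand Bmp7 fell by 2.48 ± 0.41 from paraxial tissue to neural tube, and Tgfb1 fell by 1.75 ± 0.23. The receptor Acvrl1 fell by 1.21 ± 0.26, and the antagonist Grem1 fell by 3.03 ± 0.59. In wild types these genes ran the same way without passing, at -1.25 ± 0.41, -0.68 ± 0.23, -0.89 ± 0.26 and -2.39 ± 0.59 in that order. Grem1 was well above background on 1 of the 2 mutant neural tube arrays. Among other targets Tbx2, Tgfbi and Col1a1 were lower in neural tube in both genotypes. Tbx2 was well above background on 1 of the 2 mutant neural tube arrays. Hey1, a bHLH repressor and BMP and Notch target, rose by 0.78 ± 0.14 in wild-type neural tube, and Msx3, a gene of the dorsal neural tube, by 1.22 ± 0.19 in mutant neural tube. Hey1 also passed in mutants, at 0.73 ± 0.14. Msx3 did not pass in wild types, at 0.89 ± 0.19 (limma adjusted p = 0.0619).

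Some of the bHLH partners that Id proteins act on differed by tissue, and others did not. The E proteins of the list did not pass in either genotype, with tissue differences from -0.35 to 0.04. Of 13 tested, 2 were lower in neural tube in each genotype by the limma test, where 2.45% of all genes were called in either direction in wild types and 5.85% in mutants. Olig2, of motor neuron and glial progenitors, was higher in neural tube in wild types at 3.21 ± 0.54, and it also passed in mutants. The proneural genes Neurog1 and Neurog2 were higher in neural tube than in paraxial tissue of mutants, at 2.30 ± 0.46 and 2.19 ± 0.40. Neurog1 was at 1.21 ± 0.46 in wild types without passing (limma adjusted p = 0.232). The mesodermal factor Twist1 was lower in neural tube, at -3.05 ± 0.33 in wild types and -2.56 ± 0.33 in mutants, and the muscle factor Myog at -3.24 ± 0.37 in wild types. For genotype 0 of 13 passed in either tissue. The list's median was 0.16 in neural tube, beside -0.01 for all genes, and 0.03 in paraxial tissue, beside 0.03. In neural tube 11 of 13 were higher in mutants by any amount, beside 49.2% of all genes. There 1 of 13 had both mutant arrays above both wild types and 2 had both below, where 31.9% of all genes did not overlap.

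The genes whose signal ran closest to each Id gene over the 8 arrays were found among 14300 genes well above background on every array, as a description that shares tissue and embryo with the Id gene. For Id1 these were Prr13 (Pearson r = 0.992), Lin28a (0.983) and the transcript ENSMUST00000094634 (0.980). For Id3 they were Pim1, a serine/threonine kinase (0.996), Fam117a (0.985) and Mcm2, a subunit of the replicative helicase (0.984). Id2 had looser neighbours, Rab38 (0.950), the transcript NAP060056-1 (0.944) and Dgkz (0.943). Id4 followed Celsr3, Fam131b and Ina, at 0.995 each; Ina encodes a neuronal intermediate filament and Celsr3 a cadherin of axon tracts.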

How the data were processed

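RNA from laser-captured tissue was prepared with the PicoPure kit and the cDNA labelled with Cy5, per the labels' protocols. The deposited intensity values are the red-channel processed signals of Agilent Feature Extraction 11.0.1.1 (per the submitters' processing notes), 1 file per array, with no scaling between arrays. The authors' table of the series holds the same intensities within 0.497% and served as an alternative.

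Control spots and flagged outliers were left out, spots of a probe averaged, and log2 values set to a common 75th percentile. A probe was kept when both arrays of some group read well above background (42754 probes), and the brightest stood for each of 28940 genes. limma 3.58.1 in R 4.3.3 fitted 4 group means with the embryo as a random block (consensus correlation 0.603, 4 residual degrees of freedom), with Benjamini-Hochberg adjustment at 0.05 over all genes. The labels pair the tissues by embryo, and the deviations of an embryo's tissues correlated at 0.562 in wild types and 0.607 in mutants. All error values of differences are SE from this fit. The script was tested on simulated data. Where both arrays of an embryo were left out, the correlation of the full fit was used.

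All 9 genes are named. Of each list by role, the genes with the smallest p in each direction, and up to 4 that passed, could be named, and for each Id gene the 3 genes with the highest correlation. The genes and lists were chosen with earlier results of these data known. Alternatives covered scaling, background correction, filters, probe choice, moderation, blocks and left-out arrays. Precision is limited by the number of arrays, 2 per group. A lower bound sets the brighter group's mean against, per array, the higher of the dim probe's signal and the lowest signal well above background. The values of 1 gene of the lists are not reported here.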

Additional observations from a re-analysis of the deposited data

Results flagged for a closer look

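Id2 was marked for a closer look because its tissue difference ran in opposite directions in the genotypes. Neural tube minus paraxial tissue was 0.25 and 1.15 on the log2 scale in the wild-type embryos and -0.46 and -0.69 in the mutant embryos. The difference between genotypes in this contrast was -1.28 ± 0.39 (SE) and did not pass over all genes (limma adjusted p = 0.890). It ranged from -1.75 to -0.80 when arrays were left out.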

How the results depend on the processing

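In the genotype and interaction comparisons 0 of the 7 genes passed by limma, under each alternative run. In the tissue comparisons the counts moved. The count of 2 in mutants became 1 (Id4) under quantile scaling, cyclic loess and slide row as a fixed term, and 0 with no filter on dim probes, with no replicate block, and with the embryo as a fixed block. The mean tissue count of 2 became 1 (Id4) with no filter and 0 with no replicate block. With the embryo as a fixed block it stayed 2, but Bmp4 was lost (limma adjusted p = 0.0648) and Smad6 gained (limma adjusted p = 0.0336). The wild-type count of 0 became 1 (Id4) under normexp. Leaving out arrays gave 0 to 3 genes in mutants, 0 to 3 for the mean and 0 to 1 in wild types. Smad6 passed for the mean under 4 alternatives, with adjusted p values down to 0.0238. Other signs that turned belong to values that did not pass. Id3 in the mutant tissue contrast was 0.041 under quantile scaling and 0.055 under cyclic loess. Skil by the mean of its probes was -0.19 for the wild-type tissue contrast and 0.17 for genotype in neural tube. With arrays left out, the mutant tissue contrast ranged from -0.35 to 0.18 for Id1 and -0.24 to 0.20 for Id3, and the mean one from -0.043 to 0.22 for Id1, -0.17 to 0.30 for Id2 and -0.056 to 0.16 for Id3. Genotype in neural tube ranged from -0.78 to 0.49 for Bmp4, -0.86 to 0.23 for Id2, -1.20 to 0.12 for Id4 and -0.53 to 0.90 for Smad6. Mean genotype ranged from -0.18 to 0.58 for Bmp4 and -0.19 to 1.1 for Smad6, and the interaction from -0.36 to 0.078 for Id3 and -0.077 to 0.45 for Skil. The cause of these shifts was not tested. Signal near background limits Smad7, Bambi and, on 1 array, Smad6.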

Other observations

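The arrays of embryos numbered 1 lay in row 1 of the slide and those of embryos numbered 2 in row 2, so embryo and row cannot be told apart. Smad6 was higher on the row 2 array in 4 of 4 groups, by 1.42 and 1.16 in wild-type neural tube and paraxial tissue and by 0.47 and 0.68 in the mutant tissues. Bmp4 was higher on the row 1 array in 4 of 4 groups, by as much as 1.27 in mutant neural tube. Over all genes, 10.1% were higher in row 2 in every group and 14.8% were higher in row 1. The other 5 tested genes had no common direction.

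Roof plate and dorsal neural tube markers, of the tissue where BMP signalling is strongest in the spinal cord, were higher in wild-type neural tube than in paraxial tissue for 9 of 10 genes, with a median of 0.99 and 1 passing, beside 2.45% of all genes called in either direction. In mutants 7 of 10 were higher, with a median of 0.46 and 3 passing, beside 5.85% of all genes. Mutant minus wild type had a median of 0.02 in neural tube and 0.24 in paraxial tissue, and 0 of 10 passed by limma in either.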
